A study of Mus musculus with 9 samples.

Results

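The genes described here are the inhibitory receptor gene Tigit and 6 genes of surface or secreted molecules by which tumour cells meet T cells, natural killer (NK) cells and macrophages (Pvr, Cd274, Lgals9, Ulbp1, Cd47 and Cd24a). Tigit was chosen by its FPKM, higher in clone 2 than in control, and the other 6 were picked beside it as immune evasion genes, so the clone 2 against control values are given as a description, without a test. Earlier results of these data were known when the 7 genes and the gene lists read beside them were chosen. Their p-values and counts are therefore not independent of these data. The 7 genes are among the 24067 in the table. All 7 passed the filter on low values, 1 FPKM (fragments per kilobase of transcript, scaled to library size) or more in at least 3 libraries.

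Polyadenylated RNA of 4T1 cells, a mouse mammary carcinoma line, was sequenced in 9 libraries. The libraries titled clone 3 and clone 2 came from 4T1 cells transfected by Lipofectamine with a plasmid for overexpression of miR-204-5p and held as stable clones under Zeocin, and those titled control from 4T1 cells given a control plasmid. A label states how far miR-204-5p exceeded control, 525-fold for clone 3 and 150-fold for clone 2. Each title holds 3 libraries, 1 for each of the codes C-26, C-20 and NTC in the descriptions, and the authors' deposited comparisons follow the codes. In every title the library numbered replicate 1 is coded NTC, replicate 2 C-20 and replicate 3 C-26. A difference between codes therefore cannot be told apart from a difference between replicate numbers.

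The titles tie raised miR-204-5p to the clones, whereas the deposited comparisons set C-26 and C-20 against NTC, so both groupings are given. Neither label could be checked on the miRNA gene itself: Mir204 stood at 0 FPKM in each of the 9 libraries, and Trpm3, which hosts it, reached 0.103 FPKM. Each miR-204-5p title is 1 clone, so a difference between clone and control cannot be told apart from a difference between clones. Each pairing of a title with a code was sequenced once, and no source states separate cultures, so p-values measure only the spread between these libraries. The first principal component, with 53.4% of the variance, set the 3 clone 3 libraries (23.4 to 56.0) apart from the other 6 (-38.9 to -6.88). Relative depth ran from 0.777 to 1 of the deepest library, and absolute depth is unknown. Of 1446 olfactory and vomeronasal receptor genes, 16.3% were above 0 in the clone 2 library coded C-26, against 0.968% to 9.20% in the other 8.

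TIGIT is an inhibitory receptor of T and NK cells that binds PVR (CD155) on a target cell and competes there with the activating receptor CD226. PD-L1, the product of Cd274, inhibits T cells through PD-1, and galectin-9, the product of Lgals9, is a ligand of TIM-3. ULBP1, known in mouse as MULT1, is a stress ligand of the activating NK receptor NKG2D, while CD47 and CD24 are signals that restrain uptake by macrophages.

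The labels raise miR-204-5p in the clones, and a miRNA pairs with a 3′ UTR mainly through its seed, bases 2 to 8, so the mature sequence is shown first with the seed in capitals, followed by the sites for it in the longest annotated 3′ UTRs of the 7 genes. The miRNA is at chr19:22750610-22750631 on the plus strand (RefSeq, GRCm38.p6). A 7mer-m8 site (AAAGGGA) lies in the 3′ UTR of Cd274 and a 7mer-A1 site (AAGGGAA) in that of Ulbp1, while the other 5 hold not even the 6mer AAGGGA. Each site is printed in capitals within 30 bases of the transcript (GENCODE M21, GRCm38, the assembly of mm10). The Cd274 window is chr19:29387381-29387410 on the plus strand and the Ulbp1 window chr10:7441387-7441416 on the minus strand.
mmu-miR-204-5p: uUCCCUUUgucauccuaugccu
Cd274 3′ UTR site: tgtgtctgattAAAGGGAgaccatgagtcc
Ulbp1 3′ UTR site: atcttctggacAAGGGAAtttctctgtgaa
Of 10404 tested genes with a 3′ UTR, 39.2% held at least the 6mer, 16.8% AAAGGGA, 17.8% AAGGGAA and 7.27% the 8mer AAAGGGAA. The 3′ UTRs of Cd274 (2683 nt) and Ulbp1 (5189 nt) are long beside those of Tigit (134 nt) and Lgals9 (421 nt), and Cd47 has 4133 nt without a site.

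Promoters of the 2 genes of the 7 that were called higher are shown next, Tigit for the titles and Lgals9 for the codes. Each runs from 250 bases before to 50 after the start of the gene (RefSeq, GRCm38.p6), Tigit at chr16:43664135-43664434 and Lgals9 at chr11:78984875-78985174, both on the minus strand. Capitals mark matches on either strand to the interferon response element ISRE, searched as GAAA, any 2 bases and GAAA. The GAS element (TTCNNNGAA) and the AP-1 element (TGANTCA) were searched on both strands too and had no match in either window, so no motifs overlapped.
Tigit promoter: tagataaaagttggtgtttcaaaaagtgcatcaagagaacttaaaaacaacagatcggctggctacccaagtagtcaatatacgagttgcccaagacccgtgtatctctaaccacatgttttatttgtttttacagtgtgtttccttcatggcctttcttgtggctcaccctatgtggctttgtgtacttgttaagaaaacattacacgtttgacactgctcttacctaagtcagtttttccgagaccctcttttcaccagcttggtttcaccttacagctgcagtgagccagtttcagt
Lgals9 promoter: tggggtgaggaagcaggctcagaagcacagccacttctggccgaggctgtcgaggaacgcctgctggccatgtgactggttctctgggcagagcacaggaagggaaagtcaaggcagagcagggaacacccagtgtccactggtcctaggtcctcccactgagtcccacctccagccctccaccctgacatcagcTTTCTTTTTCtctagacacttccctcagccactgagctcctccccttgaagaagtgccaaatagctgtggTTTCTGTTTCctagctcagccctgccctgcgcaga
Lgals9 had 2 ISRE matches, starting 55 bases before and 15 bases after the start of the gene, and 3.49% of 27025 promoters of this length held at least 1. Neither Tigit nor Cd274, Ulbp1 or Cd47 held any of the 3 motifs in its window. Pvr and Cd24a had no promoter window here and were not searched. GAS was in 8.47% and AP-1 in 7.93% of all promoters.

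Tigit ranked between Pvr and Ulbp1 in mean level, 25.4 FPKM over the 9 libraries against 39.0 and 16.9 FPKM. Its 3 clone 3 libraries had 38.4, 33.5 and 28.9 FPKM in the code order C-26, C-20 and NTC, its clone 2 libraries 35.6, 30.6 and 29.9 FPKM, and its control libraries 11.2, 12.7 and 7.68 FPKM. Every library of either clone was above every control library, and the 2 clones overlapped. The means were 33.6 ± 4.78 FPKM in clone 3, 32.0 ± 3.09 FPKM in clone 2 and 10.5 ± 2.59 FPKM in control (SD, n = 3 each).

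In clone 3 against control, Tigit was higher by 1.60 ± 0.20 (SE) on the log2(FPKM + 1) scale, 3.03-fold on that scale, with an adjusted p of 5.1e-04 in limma fitted over all 9 libraries and 10783 genes. The control libraries of this test are those the choice of Tigit rested on, so the p is not independent of that choice. The difference was 1.28 with an adjusted p of 0.0055 after correction for transcript length and GC content, and over the 28 alternatives tried the adjusted p ran from 6.7e-06 to 0.0055. In clone 2 against control, the contrast that chose it, the difference was 1.54 ± 0.20 (SE), and in clone 3 against clone 2 it was 0.06 (95% interval -0.38 to 0.50).

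TIGIT is known from lymphocytes, so markers of such cells were read beside it. Of 14 T and NK cell markers 1 was tested, Cd247, the zeta chain of the T cell receptor complex, at 4.59 to 12.0 FPKM. Cd3e and Nkg7 were listed at 0 in all 9 libraries, Ncr1 was at 0 in 8, and Ptprc (CD45) reached at most 0.128 FPKM. The summed level of the 14 markers was 5.56 to 8.47 FPKM in clone 3, 9.63 to 12.7 FPKM in clone 2 and 8.18 to 10.2 FPKM in control. Cd247 made up most of that sum, which had its lowest values in clone 3 and its highest in clone 2. Foxp3, a regulatory T cell gene of the same list, was below the filter and had 0.579 to 0.864 FPKM in clone 3, 0.406 to 0.526 FPKM in clone 2 and 0.333 to 0.386 FPKM in control. Like Tigit it was above control in both clones without overlap, as was Cd5 of the same list, at most 0.365 FPKM in any library. In clone 3 against control, 21.9% of all tested genes lay higher without overlap. Foxp3 and Cd5 are not among the tested genes, and the share lying above control in both clones was not counted. The part of such cells in the Tigit result was not tested. Of 12 NK receptor genes none was tested, and their sum reached 0.222 FPKM. The epithelial genes Krt8 (86.7 to 743 FPKM), Krt18 (191 to 697 FPKM) and Epcam (13.8 to 44.1 FPKM) were expressed in every library. Of 9 tested epithelial markers, 1 was called in clone 3 against control, beside 7.44% of all genes called higher. It was Krt14, higher by 1.57 (limma adjusted p = 0.0084). With the code as a replicate block 5 of the 9 were called higher, beside 14.2% of all genes. In bulk RNA, fewer cells of a kind and less RNA per cell cannot be told apart.

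Tigit lies at chr16:43648867-43664146 on the minus strand (mm10). The genes on either side were low: Zbtb20 reached at most 0.474 FPKM in clone 3, 0.703 FPKM in clone 2 and 0.433 FPKM in control, and Drd3 at most 0.0159 FPKM in any library. With a longest transcript of 919 nt, Tigit is short: 2.89% of tested genes with an annotated length are shorter. The tested genes whose profile over the 9 libraries was most like that of Tigit were Mmp9, a matrix protease, Wnt7a, a Wnt ligand, and Ecm1, a matrix protein, at root mean square differences of 0.27, 0.28 and 0.28 between centred log2(FPKM + 1) profiles. Mmp9 had 31.9 to 35.1 FPKM in clone 3, 22.6 to 40.5 FPKM in clone 2 and 7.87 to 18.1 FPKM in control.

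**Figure D1:**
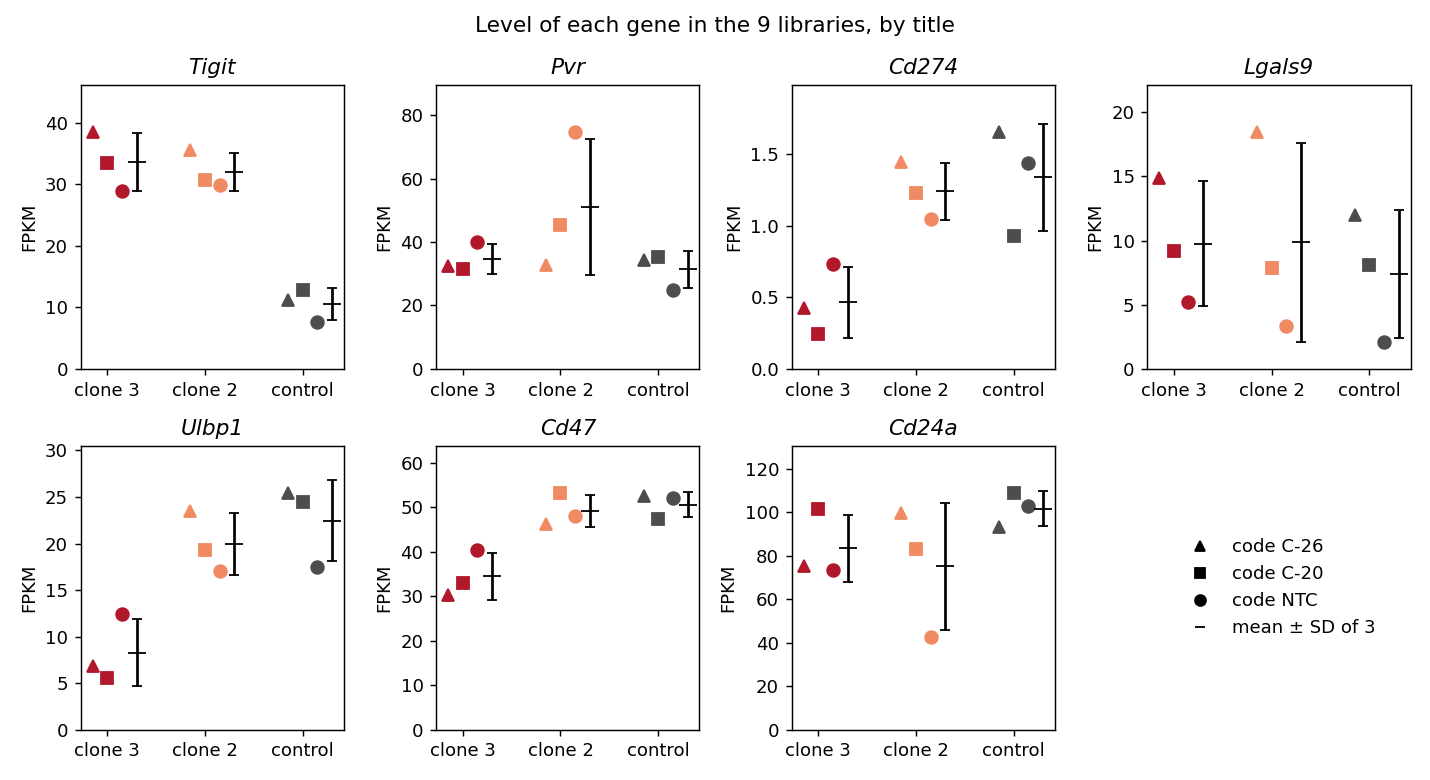
FPKM of each of the 7 genes in each library, by title on the horizontal axis, with the code of the library as the marker shape and the mean and SD of 3 libraries beside it. Tigit is higher in both clones than in control without overlap, and Cd274, Ulbp1 and Cd47 are lower in clone 3 than in clone 2 and control without overlap.

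Pvr, the ligand of TIGIT, varied more within clone 2 than between titles. It had 32.4, 31.5 and 40.1 FPKM in the C-26, C-20 and NTC libraries of clone 3, 32.8, 45.5 and 74.6 FPKM in those of clone 2, and 34.3, 35.1 and 24.7 FPKM in those of control. The 3 titles overlapped, and the clone 2 library coded NTC stood highest. Clone 3 differed from control by 0.15 (95% interval -0.46 to 0.76, limma adjusted p = 0.7295) and from clone 2 by -0.47 (-1.08 to 0.14, limma adjusted p = 0.2486). In clone 2 against control the difference was 0.62 ± 0.27 (SE) as a description. Pvr is overlapped on the other strand by Gm16184 and Gm16251, and no source used here gives the strand setting, so their reads cannot be told apart from its own.

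Of the 11 genes of the TIGIT axis list, 10 were in the table and 5 were tested. The activating receptor Cd226 and Cd96, which also bind PVR, were at 0 in 6 libraries each and at most 0.0182 FPKM in any. The nectin ligands were present. Pvrl3 (nectin-3) fell in clone 3 against control by 0.83 on the log2 scale (limma adjusted p = 0.0125), with 3.03 to 5.22 FPKM in clone 3, 6.08 to 6.60 FPKM in clone 2 and 6.85 to 8.53 FPKM in control. Pvrl2 (nectin-2), a further ligand of TIGIT, had 17.4 to 24.6 FPKM in clone 3, 15.3 to 23.9 FPKM in clone 2 and 13.7 to 21.8 FPKM in control, and did not pass the test.

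Cd274 was the least abundant of the 7 and reached 1 FPKM in 5 of 9 libraries. It had 0.425, 0.240 and 0.731 FPKM in the C-26, C-20 and NTC libraries of clone 3, 1.44, 1.22 and 1.05 FPKM in those of clone 2, and 1.65, 0.925 and 1.44 FPKM in those of control. All clone 3 libraries were below all others, while clone 2 and control overlapped. Cd274 fell in clone 3 by 0.67 ± 0.19 (SE) against control (limma adjusted p = 0.0286) and by 0.62 against clone 2 (limma adjusted p = 0.0419), on a log2(FPKM + 1) scale that understates changes of so low a gene. Corrected for length and GC, it was -0.46 against control (limma adjusted p = 0.1322), and the call against control was lost in 12 of 28 alternatives, among them those without the clone 3 library coded C-20 (adjusted p = 0.1249), the clone 3 library coded C-26 (0.10), the control library coded C-26 (0.0964) or the clone 2 library coded C-20 (0.0504). Over the 28 the adjusted p ran from 0.0055 to 0.1322. The call against clone 2 was lost in 14 of 28 alternatives (adjusted p of 0.00027 to 0.1731), among them those without the clone 3 library coded C-26 (0.1347) or C-20 (0.1731) and without the clone 2 library coded C-26 (0.1009), C-20 (0.1289) or NTC (0.0687).

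Cd274 lies 65 bases from Plgrkt, a gene on the other strand, which had 13.6 to 17.1 FPKM in clone 3, 16.4 to 22.8 FPKM in clone 2 and 22.6 to 30.6 FPKM in control. The overlapping antisense gene AC119228.1 cannot be told apart from Cd274 here. Cd80 and Pdcd1 (PD-1), other genes of the B7 and CD28 list, were at 0 in 9 and 6 libraries, and 3 of its 16 genes were tested. Of 13 genes that act on PD-L1 levels, such as those of interferon-gamma signalling, 0 were called in clone 3 against control in either direction by limma, where 7.44% of all tested genes rose and 13.2% fell. In clone 3 against clone 2, 2 of the 13 were higher, beside 6.03% of all genes, Irf1 by 1.00 (limma adjusted p = 0.0169) and Ifngr2 by 0.51 (0.0423). Irf1 had 17.1 to 21.2 FPKM in clone 3, 6.82 to 13.2 FPKM in clone 2 and 16.6 to 23.9 FPKM in control. Ifngr2 had 12.4 to 13.9, 7.68 to 9.9 and 11.8 to 13.5 FPKM in the same order. For both genes clone 2 was the lowest title, and clone 3 overlapped control. With the code as a replicate block, Jak2, a kinase of interferon-gamma signalling, fell in clone 3 against control by 1.11 (limma adjusted p = 0.0116) and Ifngr1 by 0.47 (0.0293), while Socs1, an inhibitor of that pathway, rose by 0.99 (0.0151). These are 2 of 13 lower and 1 higher, beside 16.7% and 14.2% of all genes in that fit. At an unadjusted p below 0.05, 3865 of all 10783 genes differed in clone 3 against control.

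Ulbp1 was lower in clone 3 than in both other titles. It had 6.82, 5.59 and 12.4 FPKM in the C-26, C-20 and NTC libraries of clone 3, 23.5, 19.3 and 17.0 FPKM in those of clone 2, and 25.4, 24.5 and 17.5 FPKM in those of control. The highest clone 3 library was below the lowest of the other 6, and clone 2 and control overlapped. Ulbp1 fell in clone 3 by 1.39 ± 0.27 (SE) against control (limma adjusted p = 0.0059) and by 1.23 against clone 2 (limma adjusted p = 0.0116). With length and GC corrected, the difference from control was -0.61 (95% interval -1.12 to -0.09, limma adjusted p = 0.1425), and over 28 alternatives its adjusted p ran from 2.1e-05 to 0.1425. Against clone 2 the call was lost in 6 of 28 alternatives, among them those without the clone 3 library coded C-26 (adjusted p = 0.0573) or C-20 (0.0590). Its longest transcript, 5959 nt, exceeds 85.4% of tested genes, and its GC content of 41.4% compares with a median of 49.74%. It is overlapped by Gm46209 on the other strand. The FPKM ranges of its neighbours Cnksr3 and Lrp11 overlapped between the titles.

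Of the list of NK ligands, which includes Ulbp1, 9 of 14 in the table were tested, and 0 rose and 2 fell in clone 3 against control, Ulbp1 and H60b, beside 7.44% and 13.2% of all genes. H60b, a ligand of NKG2D, fell by 1.04 (limma adjusted p = 0.0023), with 2.27 to 2.97 FPKM in clone 3, 3.66 to 5.40 FPKM in clone 2 and 6.28 to 6.82 FPKM in control. The median of the 9 was -0.36, beside 0.09 over all tested genes. Raet1 genes, near copies of each other that also bind NKG2D, may share reads: Raet1c had 0.927 to 2.26 FPKM in clone 3, 1.43 to 3.90 FPKM in clone 2 and 0.937 to 3.82 FPKM in control.

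Cd47 varied least of the 7, and the 9 libraries spanned 0.80 on the log2 scale. It had 30.2, 32.9 and 40.5 FPKM in the C-26, C-20 and NTC libraries of clone 3, 46.3, 53.2 and 48.1 FPKM in those of clone 2, and 52.5, 47.4 and 52.1 FPKM in those of control. All clone 3 libraries were below all others. Cd47 fell in clone 3 by 0.55 ± 0.15 (SE) against control (limma adjusted p = 0.0313) and by 0.51 against clone 2 (limma adjusted p = 0.0447). After correction for length and GC the direction turned, to 0.094 against control (95% interval -0.17 to 0.36, limma adjusted p = 0.6846) and 0.11 against clone 2. Its longest transcript has 5250 nt, longer than 79.9% of tested genes, with 42.23% GC. The call against control was lost too with only clone 3 and control in the fit (adjusted p = 0.0694) and without the clone 3 library coded C-26 (0.1318) or C-20 (0.1102), the control library coded C-26 (0.0927) or the clone 2 library coded C-20 (0.0513), and the adjusted p ran from 0.0038 to 0.6846 over 28 alternatives. Against clone 2, 12 of 28 alternatives ended the call and 2 turned its direction, and leaving out the clone 3 library coded C-26 (adjusted p = 0.1731) or C-20 (0.1498), any clone 2 library (0.0651 to 0.1697) or the control library coded C-26 (0.0622) or C-20 (0.0594) ended it.

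Cd24a was the most abundant of the 7, with a mean of 86.7 FPKM over the 9 libraries. It had 75.4, 101 and 73.4 FPKM in the C-26, C-20 and NTC libraries of clone 3, 99.8, 82.9 and 42.6 FPKM in those of clone 2, and 93.1, 109 and 103 FPKM in those of control. The titles overlapped, and the clone 2 library coded NTC was lowest. Clone 3 differed from control by -0.295 (95% interval -0.92 to 0.33, limma adjusted p = 0.4795), and clone 2 by -0.51 ± 0.28 (SE) as a description. Reads of Cd24a may be shared with pseudogene copies, so its level is uncertain. Of its list, phagocytosis checkpoints, 1 of 8 tested genes fell (Cd47) and 0 rose in clone 3 against control, beside 13.2% and 7.44% of all genes.

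Over the 7 genes, 1 rose (Tigit) and 3 fell (Cd274, Ulbp1 and Cd47) in clone 3 against control, where 7.44% of all tested genes rose and 13.2% fell. The control libraries here are those that the choice of Tigit rested on, so its call is not independent of that choice. In clone 3 against clone 2, 0 of the 6 genes tested rose and 3 fell, beside 6.03% and 12.8% of all genes. The libraries of clone 3 and control did not overlap for Tigit, higher in clone 3 as were 21.9% of all tested genes, nor for the 3 lower genes, as for 18.8%. Clone 3 was below clone 2 without overlap for the same 3 genes, as for 21.2% of all. With length and GC corrected, Tigit was the 1 gene of the 7 called in clone 3 against control, where 3.35% of genes rose and 5.79% fell, and 0 of 6 were called in clone 3 against clone 2, where 3.32% rose and 5.56% fell. The 3 genes that fell have longer transcripts than the median of 3403 nt and a GC content of 41.4% to 44.92%, and Tigit and Lgals9 are shorter and richer in GC.

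**Figure D2:**
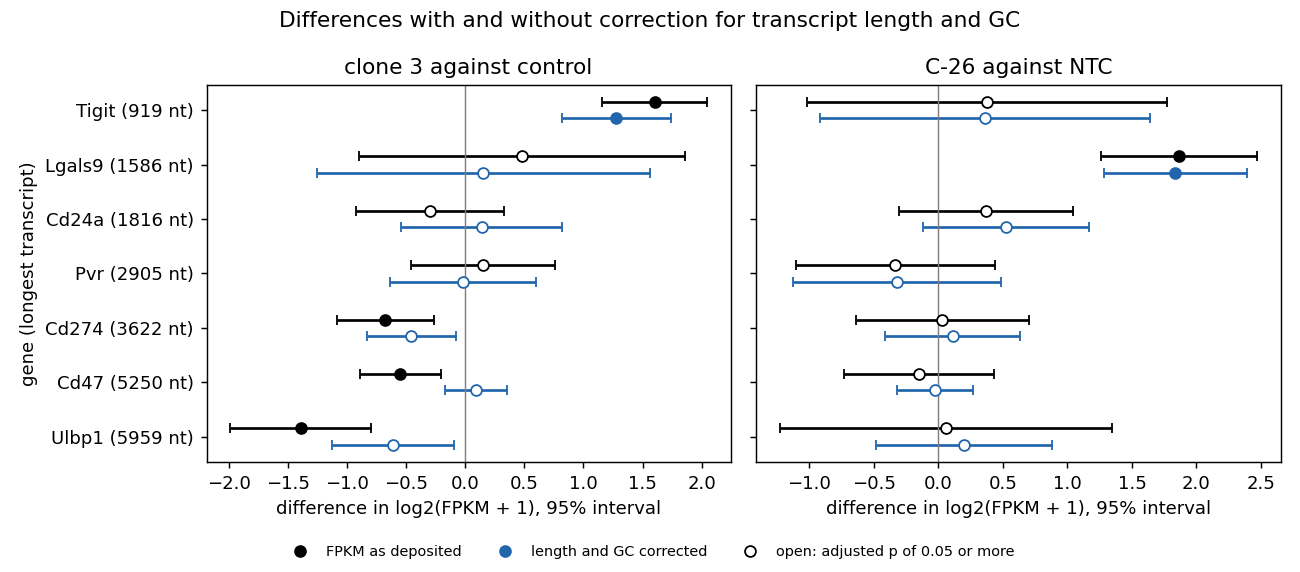
Difference in log2(FPKM + 1) with its 95% interval for each gene, ordered by the length of its longest transcript, in clone 3 against control and in C-26 against NTC, as deposited and corrected for length and GC. In clone 3 against control the Cd47 difference is -0.55 as deposited and 0.094 corrected, whereas Lgals9 in C-26 against NTC is 1.86 and 1.84.

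Lgals9 followed the codes rather than the titles. It had 14.9, 9.19 and 5.21 FPKM in the C-26, C-20 and NTC libraries of clone 3, 18.4, 7.83 and 3.31 FPKM in those of clone 2, and 12.0, 8.09 and 2.11 FPKM in those of control. Within each title C-26 was highest and NTC lowest, and across titles the codes did not overlap: C-26 was above C-20 and C-20 above NTC in every library, an order held by 0.594% of tested genes. The means were 15.1 ± 3.23 FPKM in C-26, 8.37 ± 0.72 FPKM in C-20 and 3.54 ± 1.56 FPKM in NTC (SD, n = 3 each), and by title they were 9.75 ± 4.85 FPKM in clone 3, 9.86 ± 7.76 FPKM in clone 2 and 7.40 ± 4.97 FPKM in control (SD, n = 3 each).

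In C-26 against NTC, Lgals9 was higher by 1.86 ± 0.27 (SE), 3.64-fold on the log2(FPKM + 1) scale, with a limma adjusted p of 0.0495, and in 3 of 3 titles. With the title as a block the adjusted p was 0.0022, and corrected for length and GC the difference was 1.84 (limma adjusted p = 0.0272). Without the block, leaving out any 1 of the 9 libraries ended the call (adjusted p of 0.0517 to 0.2991, difference of 1.62 to 2.12), and over 30 alternatives the adjusted p ran from 0.00014 to 0.2991. C-20 was above NTC by 1.10 ± 0.27 (SE), not called (limma adjusted p = 0.5569, and 0.0564 with the block). C-26 exceeded C-20 by 0.76, not called either (limma adjusted p = 1.0000, unadjusted 0.0187). In the authors' deposited table, the signed fold of Lgals9 was 3.52 for C-26 over NTC (raw p = 0.00495, adjusted p = 0.554) and 2.05 for C-20 over NTC (raw p = 0.0334, adjusted p = 0.911).

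Of the 7 genes, Lgals9 alone was called in C-26 against NTC, where 0.139% of all genes were called, or 6.75% higher and 7.36% lower with the block. In C-26 against NTC the libraries of 10.8% of genes lay higher without overlap, Lgals9 among them and no other of the 7. None of the 7 was called in C-20 against NTC (0.0185% of all genes, 0.306% with the block) or in C-26 against C-20 (0.0185%). In limma without the block, 1794 genes had an unadjusted p below 0.05 in C-26 against NTC, 834 in C-20 against NTC and 99 in C-26 against C-20. A share of 0.05 of genes can fall below that level without any difference, so these counts are not calls. Tigit was higher in C-26 than in NTC in 3 of 3 titles, by 0.38 with an adjusted p of 0.1303 in limma with the block, so its code difference did not pass.

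**Figure D3:**
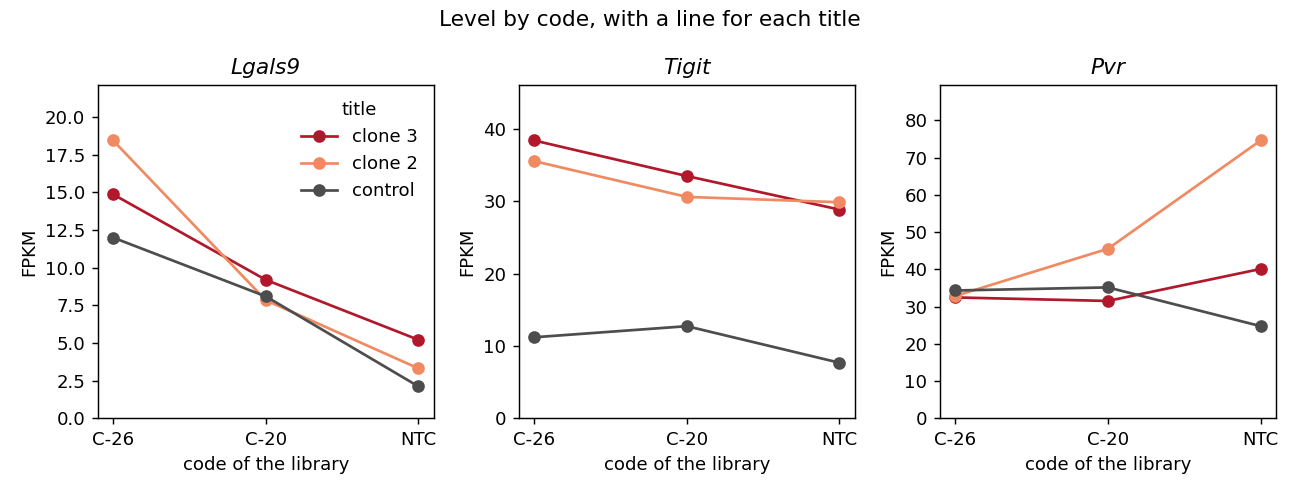
FPKM of Lgals9, Tigit and Pvr by code, with a line joining the 3 libraries of each title. Lgals9 is highest in C-26 and lowest in NTC in all 3 titles, Tigit separates control from both clones at every code, and Pvr in clone 2 is highest in NTC at 74.6 FPKM.

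The profiles most like that of Lgals9 were those of Lcp1, the leukocyte actin bundler L-plastin, Eml1, a microtubule-associated gene, and Ldhb, a lactate dehydrogenase subunit, at root mean square differences of 0.21, 0.22 and 0.25 over 9 libraries. Lcp1 had 24.7 to 30.3 FPKM in C-26, 15.8 to 24.0 FPKM in C-20 and 5.54 to 10.1 FPKM in NTC. Nos2, next to Lgals9 on chromosome 11, reached at most 0.249 FPKM. For Ulbp1 the nearest profiles were Itsn2 and Rictor (0.12 and 0.16), for Cd274 Pik3ca, Chd6 and Tceanc (0.07, 0.08 and 0.09), for Pvr Sugp2, Gm10052 and Slc23a2 (0.12, 0.16 and 0.17), and for Cd24a Sap30l, Ulk1 and Ube2t (0.17, 0.17 and 0.18). Cd47 spanned too little for such a search.

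Other genes of these pathways were called by code with the title as a block, a fit in which 6.75% of all genes rose and 7.36% fell in C-26 against NTC. Of 8 tested galectin and TIM genes, 3 rose in C-26 against NTC and 0 fell: Lgals9, Lgals3bp, a galectin-binding glycoprotein, by 0.84 (limma adjusted p = 0.0323), and Havcr2, which encodes TIM-3, by 0.96 (0.0366) though it reached only 3.39 FPKM. Both receptor and ligand of the 4-1BB pair rose, Tnfrsf9 by 1.34 (0.0051) and Tnfsf9 by 1.12 (0.0235), 2 of 3 tested TNF superfamily genes. Of 9 tested NK ligands, 3 rose, Raet1c, Raet1d and Raet1e by 0.89, 0.86 and 0.83 (adjusted p of 0.0368 to 0.0459). These near copies may share reads and reached at most 3.90 FPKM. Within clone 3, Raet1d was lower in C-26 than in NTC (0.516 against 0.576 FPKM). Raet1e had 1.71 against 1.58 FPKM there and Raet1c 1.43 against 0.927 FPKM. Of 8 phagocytosis genes 3 rose, Sirpa, the receptor of CD47, by 1.02 (0.0073), Thbs1, a further CD47 ligand, by 1.29 (0.0279) and Calr, an uptake signal, by 0.99 (0.0473). Pvrl1 (nectin-1) rose by 0.81 (0.0203) and Pvrl2 fell by 0.51 (0.0391), 2 of 5 tested genes of the TIGIT axis. Socs1 and Cdk5 rose by 0.95 and 0.92 (0.0354 and 0.0467), 2 of 13 genes that act on PD-L1, and of 5 secreted suppressors Ptges, a prostaglandin E synthase, rose by 1.36 (0.0098) and Lif, a cytokine, fell by 0.87 (0.0375). Without the block, Lgals9 was the 1 gene of these 8 lists called. Markers of kinds of cell moved too: Cd68, a macrophage lysosome gene also found in other cells, rose by 0.61 (0.0338), while Ptprc stayed at or below 0.128 FPKM. Pdgfra, of fibroblasts, rose by 1.20 (0.0190). It was the 1 tested gene of 12 fibroblast and endothelium markers, and each other gene of that list stayed at or below 0.517 FPKM. Of 9 epithelial markers, Krt8 rose by 1.47 (0.0337), Krt19 rose by 1.46 (0.0075) and Cldn3 fell by 1.07 (0.0067). The part of such cells in the result was not tested.

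By title, without the block, some genes of the same lists not yet named were called too. In clone 3 against control Lgals1, which encodes galectin-1, rose by 0.72 (limma adjusted p = 0.0152) with 6938 to 8536 FPKM in clone 3, 4337 to 4587 FPKM in clone 2 and 4429 to 4846 FPKM in control, and Lgals9 differed by 0.48 (95% interval -0.90 to 1.86). In clone 3 against clone 2, 2 of 5 tested secreted suppressors fell, beside 12.8% of all genes: Ptgs2, the prostaglandin synthase COX-2, by 1.97 (limma adjusted p = 0.0083) and Nt5e, the adenosine-forming enzyme CD73, by 1.07 (0.0154). Ptgs2 had at most 44.7 FPKM in clone 3, 76.0 to 205 FPKM in clone 2 and at most 54.7 FPKM in control. Nt5e had 22.5 to 42.8 FPKM in clone 3, 52.4 to 73.0 FPKM in clone 2 and 29.6 to 41.6 FPKM in control. For both genes clone 2 was the highest title, and clone 3 overlapped control. Cd247 fell by 0.73 in clone 3 against clone 2 (limma adjusted p = 0.0345).

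**Figure D4:**
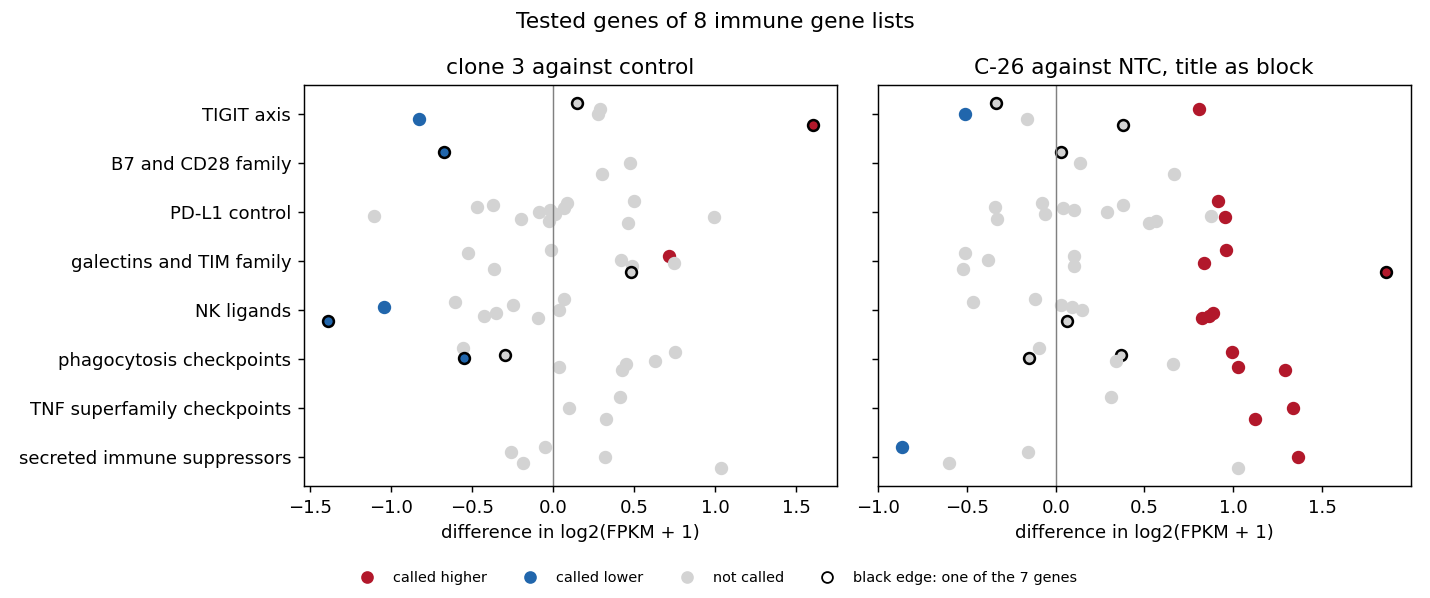
Difference in log2(FPKM + 1) of each tested gene of 8 immune gene lists, in clone 3 against control and in C-26 against NTC with the title as a block, coloured by the limma call, with a black edge for the 7 genes. By title Tigit and Lgals1 are called higher and Pvrl3, Cd274, Ulbp1, H60b and Cd47 lower, and by code Lgals9 lies farthest to the right at 1.86.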

How the data were processed

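RNA of 9 libraries (3 titles crossed with 3 codes) was extracted with TRIzol, prepared with a TruSeq kit and sequenced as paired reads, per the labels' protocols. TopHat2 2.0.13, Bowtie2 2.2.3, Cufflinks 2.2.1 and the mm10 build are named in the submitters' processing notes, without their settings. The authors' deposited table holds FPKM of 24067 genes. Their comparison table of 13414 genes holds quantile-normalized log2 values, a signed fold, and raw and adjusted p-values for pairs of codes, per the file headers. FPKM keeps no read counts, so absolute depth and counting error are unknown. Relative depth came from the steps between low FPKM values.

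log2(FPKM + 1) of genes at 1 FPKM or more in at least 3 libraries was fitted in limma 3.58.1 (R 4.3.3) with a mean-variance trend, by title and by code, over all 9 libraries. The Benjamini-Hochberg adjustment ran over 10783 genes, and genes were called below 0.05. The fit was tested on simulated data. Figures and sequences used Python 3.11.15, numpy 2.4.6, pandas 2.3.3 and matplotlib 3.10.9. Length and GC came from the longest GENCODE M21 transcript, with splines of 4 degrees of freedom each.

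The members and lists were chosen with earlier results of these data known. Named were all 7 genes, up to 4 called genes of each list per comparison, and the 3 most similar profiles for genes spanning 1 or more on the log2 scale, of which 1 is not reported here. The neighbouring genes, Pvrl2 beside Pvr by title, Raet1c, Foxp3, Cd5, Cd226, Cd96, Cd80 and Pdcd1 were named outside this rule, after their values were seen.

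Libraries of different codes that share a title deviated together (correlations of 0.26 to 0.88, 9 of 9 libraries closest to their own title), so values with the title as a block stand beside the code results. Results were recomputed with quantile-normalized FPKM, with the authors' own quantile-normalized values, with median ratio scaling, with array weights, with a pseudocount of 0.1, without the filter, with only the 2 groups compared, with the block, with length and GC corrected, and with each library left out. The block with each library left out, and clone 3 left out, were added after seeing the data.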

Additional observations from a re-analysis of the deposited data

Results flagged for a closer look

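For Pvr, Cd274 and Ulbp1, both codes moved one way against NTC within one title and the opposite way within another. The share of all tested genes that do so was not counted, so the pattern cannot be called particular to these genes. These opposite directions were not tested, since each value rests on 1 library against 1, and all values are differences in log2(FPKM + 1). Pvr differed from NTC by -0.34 in C-20 and -0.30 in C-26 within clone 3, by -0.70 in C-20 and -1.16 in C-26 within clone 2, and by 0.49 in C-20 and 0.46 in C-26 within control. Cd274 differed from NTC by -0.48 in C-20 and -0.28 in C-26 within clone 3, and by 0.12 in C-20 and 0.25 in C-26 within clone 2. Ulbp1 differed from NTC by -1.02 in C-20 and -0.78 in C-26 within clone 3, by 0.17 in C-20 and 0.44 in C-26 within clone 2, and by 0.465 in C-20 and 0.52 in C-26 within control.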

How the results depend on the processing

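Tigit in clone 3 against control kept its direction and its call in 28 of 28 alternatives (1.28 to 1.75). All of them use control libraries that the choice of Tigit rested on, so this count is not independent of that choice. With length and GC corrected, Cd47 turned to 0.094 against control and 0.11 against clone 2, with and without the replicate block, and the genes called of the 7 were 1 in clone 3 against control and 0 in clone 3 against clone 2. Lgals9 in C-26 against NTC lost its call with no filter and with only the 2 groups compared (1.86 in both, adjusted p of 0.0659 and 0.1328), without the clone 3 libraries (2.12, 0.0593) and with each library left out (1.62 to 2.12). The genes called of the 7 in that comparison were then 0, against 3 with array weights. Array weights also called 2 in C-20 against NTC and 1 in C-26 against C-20. With only the 2 groups compared, 2 were called in clone 3 against control. With a library left out, without or with the block, the genes called numbered 2 to 4 in clone 3 against control, 0 to 4 in clone 3 against clone 2, 0 to 1 in C-20 against NTC and 0 to 2 in C-26 against NTC. The causes were not tested.

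The main title fits held no block for the code, although libraries of one code partly deviated together. Correlations between libraries of one code ran from -0.24 to 0.56 with a median of 0.48, and 7 of 9 libraries correlated best with their own code. With the code as a replicate block, genes called numbered 3330 in clone 3 against control, against 2220 without it, and 3176 against 2030 in clone 3 against clone 2. With the title as the replicate block they numbered 1522 against 15 in C-26 against NTC and 33 against 2 in C-20 against NTC. The block changed no call of the 7 genes in the comparisons tested here. Clone 2 against control, which chose Tigit, was not among them.

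Array weights called 4493 genes in clone 3 against control, 6966 in clone 3 against clone 2, 574 in C-20 against NTC, 4034 in C-26 against NTC and 98 in C-26 against C-20. The length and GC correction called 959, 931, 2, 34 and 0. With no filter, 4 were called in C-20 against NTC, 27 in C-26 against NTC and 4 in C-26 against C-20, and with only the 2 groups compared 0 in C-20 against NTC and 2 in C-26 against NTC. A pseudocount of 0.1 called 1 in C-20 against NTC, and the authors' quantile-normalized values called 0 in C-26 against C-20. Of the genes called in clone 3 against control, 36.1% were higher, 24.5% after median ratio scaling. Absolute depth is unknown, so low genes such as Cd274 carry a counting error that cannot be given.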
